A study of Glycine max with 63 samples.

Results

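The comparison set 12 soybean embryo libraries of a transgenic line whose deposited tables carry the letter R against 12 libraries of a line whose tables carry the letter G. These 24 are among the 36 greenhouse samples of a series of 63. Each letter comes with the T numbers T2, T3, T4 and T5, with 3 libraries at each, and what R, G and T stand for is not stated in the sources used here. The question addressed, per the series' design text, is how embryos respond to Arabidopsis WRI1 and DGAT1 while seed composition is changed. Greenhouse plants were labelled as WD-1, WD-2 or the untransformed cultivar Thorne (WT), and per the labels a library was made from a single peeled embryo, with seed coat and endosperm removed, of 1 of 3 plants. The other 12 greenhouse tables carry the letters Wt and serve here as levels to set beside R and G.

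The letters and the sample titles do not match, and the groups here follow the table names. By title, R T2 was labelled WD-2 at 30 days after pollination (DAP), R T3 WT at 33 DAP, R T4 WD-1 at 33 DAP and R T5 WD-2 at 33 DAP. By title, G T2 was labelled WD-1 at 27 DAP, G T3 WD-2 at 27 DAP, G T4 WT at 30 DAP and G T5 WD-1 at 30 DAP. R T3 and G T4 are thus untransformed by title, yet AtWRI1 was read in all 3 libraries of both groups. At each T number R also has the later DAP by title, and whether a T number marks 1 age in both lines is not known. Line and embryo age therefore cannot be told apart in R minus G. Which line each letter stands for, the promoters that drive the transgenes, and whether a line is 1 insertion event are not stated in any source at hand.

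WRI1 is a transcription factor of the seed that turns on genes of late glycolysis and plastid fatty acid synthesis, so that sugar carbon flows into acyl chains. DGAT1 is the acyltransferase that adds the last acyl chain to diacylglycerol and so completes triacylglycerol, the storage oil. In a soybean embryo this oil is laid down beside storage protein during seed filling, while starch and soluble sugars change with stage. The tables identify soybean genes by GLYMA numbers, of which 0 of 55897 matched the 59048 genes of the available reference table, so genes are given by identifier and without a role. Lists of oil, storage protein, sugar and seed coat genes could therefore not be tied to identifiers, and the embryo label was not checked against marker genes.

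The R libraries held 3.02 to 20.9 M counts (1 M is 1000000 counts) and the G libraries 5.82 to 23.6 M. Where a gene had no count, up to 3 counts remain possible, or 0.144 to 0.995 counts per 1 M (CPM) in R libraries and 0.127 to 0.516 CPM in G libraries. Such limits and intervals cover counting error only. R T3 replicate 1, R T5 replicate 3 and G T5 replicate 2 held under 10 M counts. A library was 1 embryo, so a lower level of a gene and a smaller share of the cells that express it cannot be told apart.

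The lines differed in how much of each library came from 98 consecutive identifiers, GLYMA_13G013600 to GLYMA_13G023300. At T2 this stretch took 68.6, 66.2 and 47.1% of all counts in the 3 R libraries, against 5.58, 4.85 and 5.37% in the 3 G libraries. At T3 it took 19.1, 65.0 and 57.6% in R and 4.45, 3.72 and 2.69% in G. Even the lowest of these R libraries, T3 replicate 1, lay above every G library at T2 and T3. At T4 it took 60.4, 66.8 and 66.1% in R and 28.8, 12.3 and 1.79% in G. At T5 it took 6.40, 52.9 and 48.8% in R and 2.42, 12.4 and 1.84% in G. R lay above G in every library at T2, T3 and T4, while R T5 replicate 1 lay below G T5 replicate 2. The 95% binomial intervals (Wilson) of these shares reached at most 0.0531 percentage points to either side. The Wt libraries ranged from 3.27 to 28.9% (median 6.95%), with a single library, Wt T2 replicate 1, at the top.

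**Figure D1:**
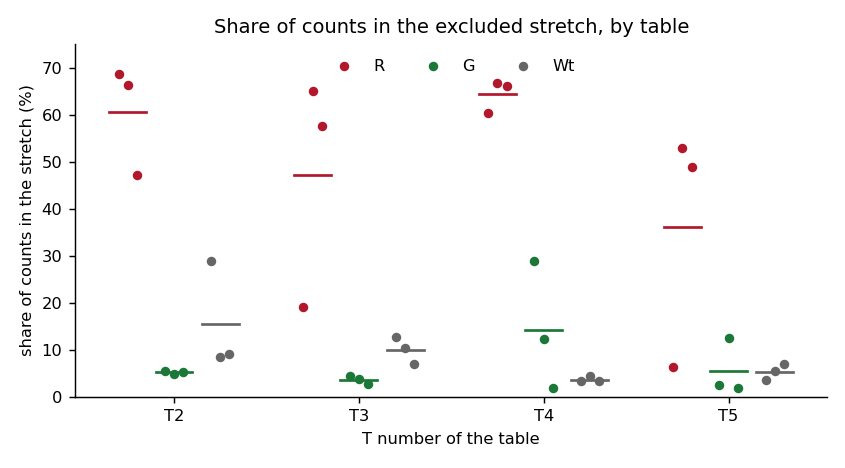
Share of all counts (%, y axis) that fell in GLYMA_13G013600 to GLYMA_13G023300, by T number, for R, G and Wt libraries; each point is a library and each bar the mean of 3. The R libraries sit at 47.1% or more, except that R T3 replicate 1 (19.1%) and R T5 replicate 1 (6.40%) sit below.

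Nearly all of these counts came from few identifiers. The 6 highest identifiers held 99.6 to 99.7% of the stretch's counts in R libraries and 99.1 to 99.8% in G libraries. The largest of them held 57.4 to 61% of the stretch in R and 53.8 to 59.7% in G, and 55.9 to 59.3% in Wt, while the stretch's own share ran from 6.40 to 68.6% in R. The proportions of the next ones varied more, mostly in G, with 13.2 to 15.4% of the stretch in R and 9.26 to 15.3% in G for GLYMA_13G020800, and 8.22 to 9.96% in R and 7.51 to 16.9% in G for GLYMA_13G013600. Of its identifiers 56 had enough counts to be fitted, with a median log2 fold change (R over G, mean over T2 to T5) of 4.47, which is 22.1-fold, and a range from 2.44 to 5.90. The median was 5.33 at T2, 4.73 at T3, 3.51 at T4 and 4.10 at T5. The stretch was singled out on earlier results of these data, so these are descriptions with no test.

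The numbers on either side of the stretch did not mark its end. Just inside its limits GLYMA_13G013600 and GLYMA_13G023300 had log2 fold changes of 4.49 and 4.55, and the next fitted identifiers outside had 4.10 on the lower side and 4.65 on the upper side. A longer run, GLYMA_13G011100 to GLYMA_13G024200, held 78 fitted identifiers, of which 22 lie outside the stretch with a median log2 fold change of 4.13. The 20 fitted identifiers before the longer run had a median of -0.15 and the 20 after it a median of 0.21. These limits were set after the values were seen. The longer run took 7.15 to 77.2% of counts in R and 2.09 to 31.8% in G. One identifier of it that the rescaling left in took 0.69 to 8.34% of counts in R and 0.262 to 2.59% in G, and scaling without the whole run called 12711 genes over T2 to T5 where scaling without the stretch called 12728.

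Because of the stretch, all other genes were put on a common scale without it. Counts outside it came to 1.74 to 15 M in R libraries (median 6.55 M) and 5.10 to 22.7 M in G libraries (median 17.4 M), so R levels rest on fewer counts. Levels below are rescaled CPM, counts per 1 M of the library outside the stretch after TMM normalization. The scale matters for the transgenes, as shares of all counts put AtWRI1 at 39.0 to 324 CPM in R (median 79.8) and at 0 to 320 CPM in G (median 273).

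On the rescaled level neither transgene differed past the threshold between the lines. AtWRI1 stood at 153, 184 and 258 rescaled CPM in R T2, against 214, 253 and 154 in G T2. At T3 it stood at 274, 203 and 220 in R and 334, 327 and 344 in G. At T4 it stood at 205, 214 and 199 in R and 339, 278 and 287 in G. All R values lay below all G values at T3 and at T4, and the lines overlapped at T2. At T5 AtWRI1 stood at 356, 283 and 216 in R and at 152, 0 and 271 in G. The library at 0 was G T5 replicate 2, which held 0 counts of both transgenes among 5.82 M. Averaged over T2 to T5, AtWRI1 was at 230 ± 54.3 rescaled CPM in R and 246 ± 102 in G (SD, n = 12 each), with a log2 fold change of -0.03 (SE 0.34, edgeR adjusted p = 0.958).

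AtDGAT, the DGAT1 transgene, was at 40.1 ± 11.7 rescaled CPM in R and 41.1 ± 18.2 in G (SD, n = 12 each), with a log2 fold change of -0.03 (SE 0.27, edgeR adjusted p = 0.956). At T2 it stood at 23.9, 35.3 and 38.4 in R and 30.4, 34.1 and 17.4 in G, and the lines overlapped. At T3 it stood at 40.6, 28.3 and 46.2 in R and 48.8, 54.9 and 60.9 in G. At T4 it stood at 32.9, 32.6 and 31.7 in R and 48.0, 47.7 and 54.2 in G, with all R values below all G values at T3 and at T4. At T5 it stood at 56.9, 54.7 and 59.1 in R and 37.8, 0 and 58.6 in G, which overlapped. The log2 fold changes were 0.27 at T2, -0.51 at T3, -0.62 at T4 and 0.76 at T5. Neither transgene passed the threshold at any single T number, with the smallest edgeR adjusted p at 0.323 for AtWRI1 at T5. The SE was 0.68 for AtWRI1 and 0.54 for AtDGAT at every T number. It comes from 1 fit of all 8 groups, with G T5 replicate 2 at 0 counts among them. These p-values therefore do not show the lines to be alike at T3 or T4. Without G T5 replicate 2 the log2 fold changes were -0.17 for AtWRI1 (adjusted p = 0.252) and -0.15 for AtDGAT (adjusted p = 0.286). The rescaled levels still ran against the log2 ratio of counts inside to outside the stretch. Within R, Pearson's r was -0.85 for AtWRI1 and -0.60 for AtDGAT, and within G -0.30 and -0.36. The part of the stretch in these levels was not tested. The number of AtWRI1 counts per AtDGAT count ran from 3.66 to 7.18 in R (median 6.27) and from 4.03 to 8.87 in the 11 G libraries with reads (median 5.95). The 12 Wt libraries held 0 to 7 counts of AtWRI1 and 0 to 2 of AtDGAT.

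**Figure D2:**
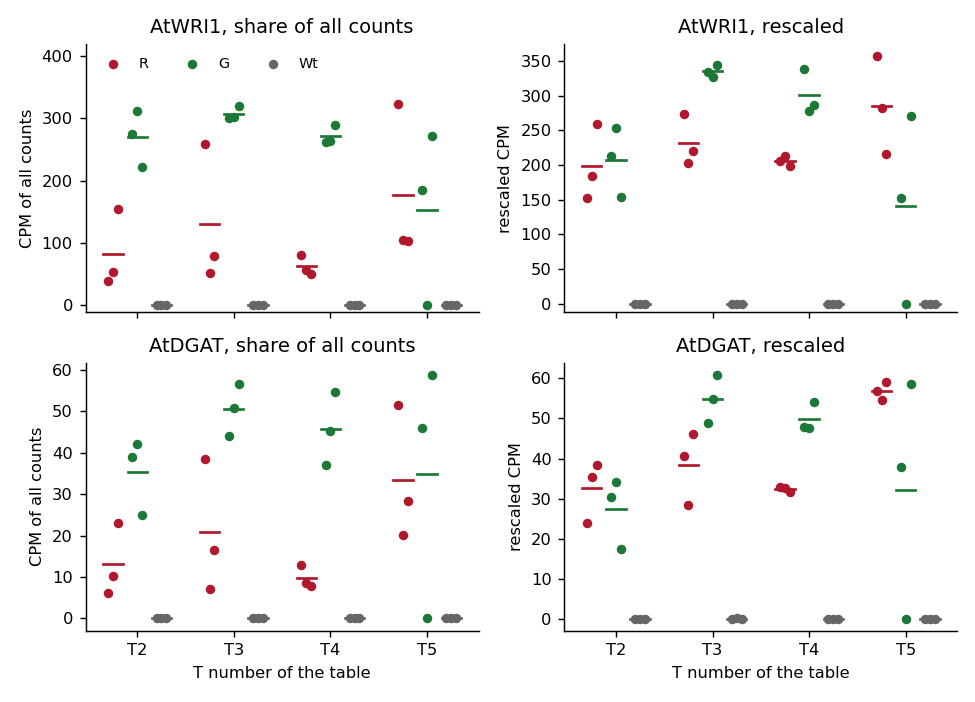
AtWRI1 (top) and AtDGAT (bottom) per library as CPM of all counts (left) and as rescaled CPM (right), by T number, for R, G and Wt; bars are means of 3. The R libraries with the stretch at 47.1% or more lie low on the left panels and between 153 and 283 rescaled CPM of AtWRI1 on the right, and G T5 replicate 2 is at 0 in every panel.

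A pair of neighbouring soybean identifiers was missing from both lines. GLYMA_15G228700 had 0 counts in all 12 R libraries, among 192 M counts in all, and 0 in all 12 G libraries, among 216 M, against 27 to 157 counts in each Wt library. The pooled counts of 0 allow up to 0.0157 CPM in R and 0.0139 CPM in G, and the Wt median was 5.11 CPM. GLYMA_15G228600 had 0 to 4 counts in R libraries, 0 to 3 in G libraries and 40 to 154 in Wt libraries. Both were at 0 or 1 count in G T5 replicate 2, the library without transgene reads, so on this measure it lies with the other R and G libraries and not with Wt. Neither identifier had enough counts in R and G to be fitted.

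A second run of identifiers, GLYMA_13G203300 to GLYMA_13G217700, split the G libraries by T number. Over 82 of its genes with a Wt mean of at least 2 rescaled CPM, the median log2 ratio to the Wt mean of the same T number was 0.83 to 0.99 in all 12 R libraries. It was 1.01, 1.02 and 0.99 in G T2, and 0.91, 0.90 and 0.90 in G T4. It was 0.02, -0.05 and -0.07 in G T3, and -0.04, 0.06 and -0.02 in G T5. On this run the R libraries, G T2 and G T4 thus lay near a doubling of the Wt level, and G T3 and G T5 lay at the Wt level, with no library between them. Up to 50 fitted genes on each side of the run had medians of -0.24 to -0.06 in R, and the median over all genes was -0.09 to 0.00 in R. The letters therefore do not mark 1 uniform set of G libraries over the T numbers, and each comparison below is also given by T number.

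**Figure D3:**
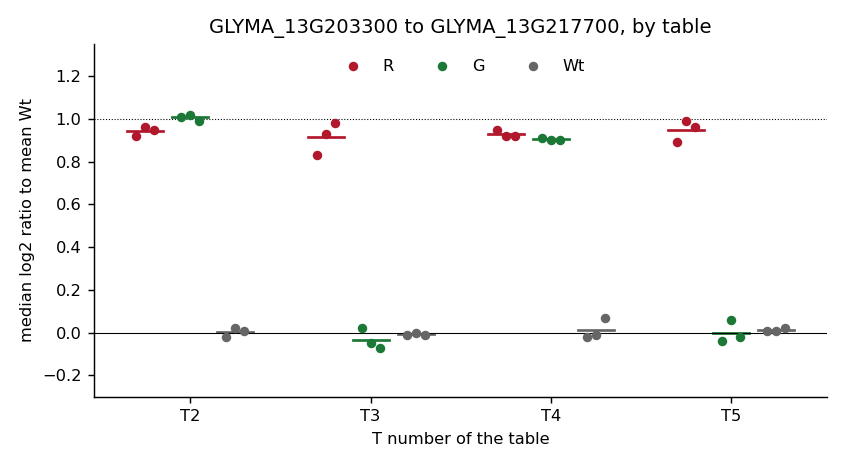
Median log2 ratio (y axis) of GLYMA_13G203300 to GLYMA_13G217700 to the mean of the Wt libraries at the same T number, by T number, for R, G and Wt; each point is a library, bars are means of 3, and the dotted line marks a ratio of 2. The R libraries lie between 0.83 and 0.99, G T2 and G T4 between 0.90 and 1.02, and G T3 and G T5 between -0.07 and 0.06.

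The R minus G contrast followed the same split. At T3, 68 of the 113 fitted genes of this run were higher in R (60.2%) and 0 lower, with a median log2 fold change of 0.85, where 10.9% of all genes tested were higher in R at T3. At T5, 71 were higher (62.8%) and 0 lower, with a median of 1.02, where 9.52% of all genes were higher. At T2, 3 were higher and 6 lower with a median of -0.09, where 4.55% of all genes were higher. At T4, 7 were higher and 12 lower with a median of -0.02, where 5.34% of all genes were higher. The 100 fitted genes beside the run had medians of -0.15 at T3 and -0.05 at T5. The run was chosen with earlier results of these data known. These counts come from the same libraries as the ratios to Wt, so they are descriptions with no test.

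**Figure D4:**
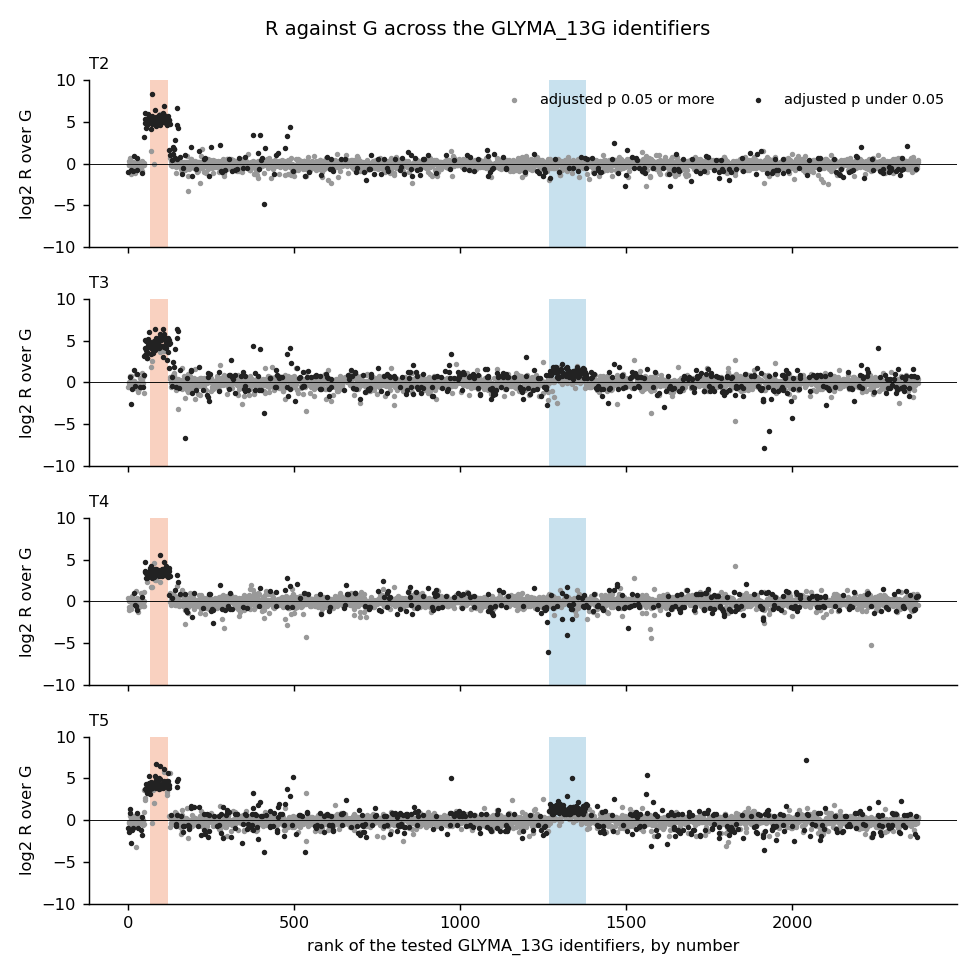
Log2 fold change of R over G (y axis) for each fitted GLYMA_13G identifier in order of its number (x axis, rank), at T2, T3, T4 and T5; black points passed the threshold of 0.05 on the adjusted p. The first shaded band is the excluded stretch, with medians of 3.51 to 5.33, and the second is GLYMA_13G203300 to GLYMA_13G217700, with medians of 0.85 at T3 and 1.02 at T5 but -0.09 at T2 and -0.02 at T4.

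Averaged over T2 to T5, R and G differed in 12728 of 33369 genes tested, which is 38.1% (edgeR's quasi-likelihood F-test, Benjamini-Hochberg adjusted p under 0.05). Of these 5962 (17.9%) were higher and 6766 (20.3%) lower in R. By title R also had the later DAP at each T number, so line and age cannot be told apart in these calls. Most differences were small, with a median absolute log2 fold change of 0.46 among the genes called. Over 2-fold, 619 genes were higher and 615 lower. Over 4-fold the directions were uneven, with 307 higher, 252 of them outside the stretch, and 67 lower.

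Fewer genes passed in the fits that took the libraries' share of the stretch into account. These fits also differ from the fit above in other ways. In a fit with the log2 ratio of counts inside to outside the stretch as a covariate, added after the data were seen, 193 genes passed, 96 higher and 97 lower, and 188 of them were among the 12728 with the same sign. The ratio and the line were correlated over the 24 libraries (Pearson's r = 0.84), so the fit separates them poorly. For the transgenes it was less precise, with an SE of 0.701 against 0.338 for AtWRI1 and 0.558 against 0.269 for AtDGAT. Of the 12728 genes 87.0% kept their sign in it, with a median absolute log2 fold change of 0.27. Of all 33369 genes tested, 24021 had the same sign in both fits. With the 12 G libraries and the 2 R libraries under 35% of counts in the stretch, R T3 replicate 1 and R T5 replicate 1, 325 genes passed over T3 and T5, 197 higher and 128 lower. There each R library is alone at its T number and is assumed to vary like the other groups. With all 24 libraries the mean of T3 and T5 called 8560 genes, so the 12728 over T2 to T5 are not the like count. The contribution of the stretch's share to the other genes' levels was not tested beyond these values.

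The genes with the largest rises tracked the stretch. By the naming rule, which asks for at least 5 rescaled CPM in the higher line and 1 direction at all 4 T numbers, the 12 largest rises had log2 fold changes of 4.94 to 5.19. Of the 12, 2 lie in the stretch. Within the 12 R libraries, the correlation of each gene's log2 level with the stretch ratio was 0.83 to 0.99, and 10 of the 12 were at 0.9 or more. These 10 include the 2 in the stretch, at 0.95 and 0.96, which are themselves part of the ratio. Of the 33313 genes outside the stretch, 73 (0.219%) were at 0.9 or more. Among the 252 genes over 4-fold higher outside the stretch, 58 were at 0.9 or more and the median was 0.71. These 252 include 21 genes of the longer run. Outside the stretch, 85% of the 5907 genes called higher had a correlation above 0, against 49.2% of all genes tested there. Of the 6766 called lower, 84.5% had a correlation below 0, against 50.8% of all. These correlations share the library and its scale and are descriptions. In the covariate fit 3 of the 12 rises passed. A gene that follows the ratio loses difference to the covariate there, so that fit cannot check the rises. With the libraries under 35% of counts in the stretch, over T3 and T5, the 12 had log2 fold changes of 2.48 to 5.05. Over T3 and T5 in all libraries they had 5.23 to 6.12.

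The largest of these 12 rises was that of GLYMA_04G145900, while identifiers of the stretch that the rule did not take reached 5.90. In R it stood at 65.8, 68.2 and 27.3 rescaled CPM at T2, 7.35, 33.7 and 34.7 at T3, 52.8, 52.5 and 50.9 at T4, and 3.45, 18.4 and 17.2 at T5. In G it stood at 1.39, 0.642 and 0.76 at T2, 0.314, 1.56 and 0.526 at T3, 12.6, 3.38 and 0.18 at T4, and 0.116, 0.163 and 0.0581 at T5. The lines did not overlap at any T number, and the lowest R libraries at T3 and T5 and the highest G library at T4 were those whose share of the stretch was also the lowest in R and the highest in G. Its log2 fold change was 5.19 (SE 0.43, edgeR adjusted p = 7.11e-09), and 1.75 (adjusted p = 0.0692) in the covariate fit. Over T3 and T5 it was 4.05 with the libraries under 35% of counts in the stretch and 5.8 with all libraries. The Wt libraries ranged from 0.408 to 7.69, with the top value in Wt T2 replicate 1, the Wt library with the largest share of the stretch.

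GLYMA_12G061600 was far more abundant and moved alike. It averaged 1884 ± 525 rescaled CPM in R T2, 708 ± 371 in R T3, 1605 ± 295 in R T4 and 426 ± 180 in R T5. It averaged 34.3 ± 5.11 in G T2, 14.1 ± 7.03 in G T3, 281 ± 345 in G T4 and 3.97 ± 2.88 in G T5 (SD, n = 3 each). The wide spread of G T4 came from replicate 1 at 669, beside 167 and 7.57. The log2 fold change was 5.13 (SE 0.44, edgeR adjusted p = 1.07e-08), and 2.82 (adjusted p = 0.0296) in the covariate fit. Over T3 and T5 it was 5.05 with the libraries under 35% of counts in the stretch and 6.12 with all libraries. The Wt libraries ran from 14.0 to 623, again with Wt T2 replicate 1 at the top.

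The largest falls were smaller than the rises, with log2 fold changes of -2.27 to -1.60 for the 12 named by the rule. In the covariate fit 3 of the 12 passed and 1 had its sign turned, at 0.21. In the mean of T2 and T4 alone, added after the data were seen, 9 of the 12 passed, with log2 fold changes of -2.23 to -0.14. Their correlation with the stretch ratio within R ran from -0.82 to 0.56. GLYMA_02G111100 stood at 7.90, 2.42 and 4.32 rescaled CPM in R T2, 8.76, 5.39 and 0 in R T3, 2.80, 0 and 0 in R T4, and 4.89, 7.70 and 0 in R T5. In G it stood at 16.6, 10.2 and 7.84 at T2, 15.4, 22.1 and 22.7 at T3, 13.8, 7.38 and 12.6 at T4, and 29.5, 21.0 and 26.2 at T5. All R libraries lay below all G libraries at T3, T4 and T5, and they overlapped at T2 by a single value. The log2 fold change was -2.27 (SE 0.31, edgeR adjusted p = 4.07e-06), -4.03 without R T4 replicate 1, which left R T4 at 0 counts and the value dependent on the prior count, and -2.05 (adjusted p = 0.0869) in the covariate fit. Wt libraries held 10.4 to 22.8 at T2 and 55.2 to 148 at T3 to T5, above both lines from T3 on.

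GLYMA_12G111600 separated every R library from every G library. It ranged from 0.261 to 2.79 rescaled CPM in R (median 1.20) and from 2.82 to 8.79 in G (median 4.80), against 0.188 to 0.952 in Wt. The R levels rest on 111 counts over the 12 libraries. Its log2 fold change was -2.11 (SE 0.21, edgeR adjusted p = 6.34e-08) and -2.48 (adjusted p = 0.00613) in the covariate fit. Its Pearson's r with the stretch ratio was 0.56 within R and 0.37 within G. A gene lower in R that rises with the ratio loses no difference to the covariate, so that fit cannot check this fall. The difference was -1.19 at T2 (edgeR adjusted p = 0.024), -2.12 at T3 (0.00215), -1.60 at T4 (0.00714) and -3.54 at T5 (4.44e-05).

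**Figure D5:**
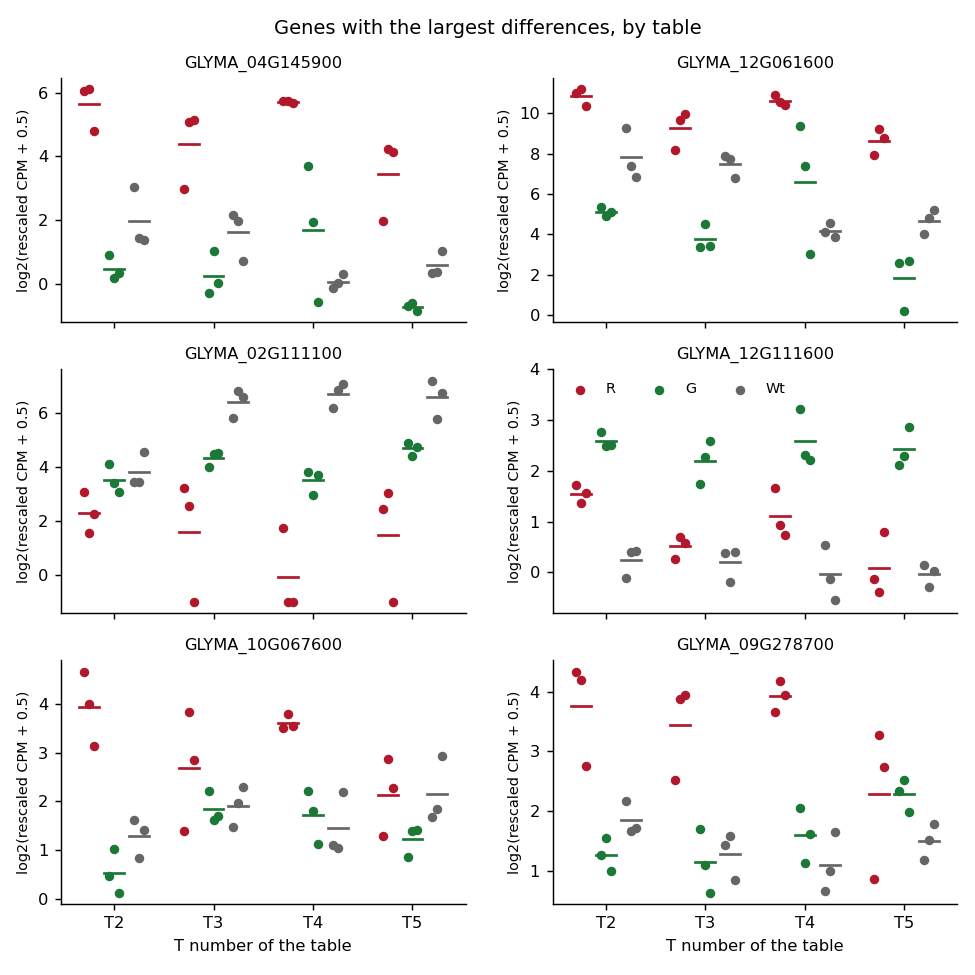
Levels of 6 genes as log2(rescaled CPM + 0.5), by T number, for R, G and Wt; each point is a library and each bar the mean of 3 on the log2 scale. Within each T number R lies above G for GLYMA_04G145900 and GLYMA_12G061600. For GLYMA_12G111600 all R libraries lie below all G libraries. R and G of GLYMA_10G067600 and GLYMA_09G278700 lie far apart at T2 and close at T5.

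Few genes separated the lines in every library. All 12 R libraries lay above all 12 G libraries for 27 genes and below them for 51, and 0 of these lie in the stretch or in the second run. All of them were among the 12728 called, where 38.1% of all genes were called. The 27 had log2 fold changes of 0.40 to 4.60 (median 0.66, 1.58-fold) and the 51 of -2.11 to -0.35 (median -0.75, 1.69-fold lower). In the covariate fit all 27 and all 51 kept their sign, with medians of 0.48 and -0.58, and 5 and 10 of them passed. In 16 of the 27 the R libraries also lay above all 12 Wt libraries, and in 28 of the 51 below them. The share of all genes tested with R apart from Wt was not counted, so these are no result about the genes. These genes were picked for not overlapping and carry no test of their own. That choice favours their being called, keeping their sign and having R apart from Wt.

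By T number, the lines differed in 3152 genes at T2 (9.45%), 6636 at T3 (19.9%), 4121 at T4 (12.3%) and 6183 at T5 (18.5%), by edgeR at an adjusted p of 0.05. The genes higher and lower in R numbered 1517 and 1635 at T2, 3637 and 2999 at T3, 1782 and 2339 at T4, and 3177 and 3006 at T5. Leaving out a single library often moved these counts by over 1.5 times. The T2 count was 1525 and 1718 without R T2 replicates 1 and 2, and 1885 and 2074 without G T2 replicates 2 and 3. The T3 count was 3347 and 4162 without R T3 replicates 2 and 3. The T4 count was 2115 and 1659 without R T4 replicates 2 and 3, and 1997 and 1727 without G T4 replicates 2 and 3. The T5 count was 3203 without R T5 replicate 2 and 3813 without G T5 replicate 1. The covariate fit called 180, 498, 2 and 3247 genes at T2, T3, T4 and T5, so the T5 count fell least.

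The 4 contrasts share no libraries, and their calls overlapped in part. Of the 33369 genes, 237 were higher in R at all 4 T numbers, 45 of them in the stretch, and 116 were lower at all 4. At exactly 1 T number 4038 genes were higher and 4379 lower. In 502 genes at least 1 T number had R higher and another had R lower. The T3 and T5 calls went against each other in 354 genes and had the same direction in 1341, which is 20.2% of the T3 calls and 21.7% of the T5 calls. The T3 and T4 calls went against each other in 6 and had the same direction in 2327, which is 35.1% of the T3 calls and 56.5% of the T4 calls. Across genes outside the stretch, Pearson's r between log2 fold changes was 0.52 for T3 and T4, 0.50 for T2 and T3, 0.47 for T2 and T5, 0.36 for T3 and T5, 0.34 for T2 and T4 and 0.26 for T4 and T5. Genes are not independent replicates, and libraries of a line share its stretch, so these are descriptions.

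The difference between the lines itself changed from T2 to T5 in 667 genes (2.00%), of which 330 were larger at T5 and 337 smaller (edgeR's test of the difference of the 2 contrasts, adjusted p under 0.05). An F-test of all 3 interaction terms called 3639 genes. The 667 moved to between 301 and 1427 when single libraries were left out, the lowest without G T2 replicate 2 and the highest without G T5 replicate 3. It was 403 without G T2 replicate 3, 368 and 406 without R T2 replicates 1 and 2, 421 and 390 without G T5 replicates 1 and 2, and 420 without R T5 replicate 2. The covariate fit called 730.

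The largest gains of R over G between T2 and T5 went with G levels that were high at T2 and at 0 at T5. GLYMA_19G091800 stood at 1.16, 1.38 and 2.03 rescaled CPM in R T2 and 0.414, 0.783 and 1.85 in R T5. In G it stood at 7.49, 5.73 and 12.2 at T2, at 1.24 ± 0.319 at T3 and 0.281 ± 0.294 at T4 (SD, n = 3), and had 0 counts in all 3 libraries at T5. R was thus lower at T2 in every library. At T5 its mean was 1.01, from 15 counts in the 3 R libraries. This is 16.6 times the 0.0611 that 3 counts pooled over the 3 G libraries allow. The R mean weighs its 3 libraries alike and leaves out its own counting error, so the ratio is no lower bound. The ratio was 9.80 without R T5 replicate 3, 7.89 without G T5 replicate 1 and 10.8 without G T5 replicate 3. The edgeR adjusted p of the change was 0.00449. The Wt libraries went the same way as G, with 3.48 ± 0.545 at T2 and 0.283 ± 0.126 at T5.

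GLYMA_19G051100 had the same pattern, with means of 0.757 ± 0.96 in R T2 and 0.761 ± 0.562 in R T5. In G it stood at 5.75, 5.41 and 6.18 at T2, and had 0 counts in all 3 libraries at T5. The R T5 mean, from 11 counts in all, was 12.5 times what 3 counts pooled over the 3 G libraries allow. This ratio is likewise no lower bound. It was 5.92 without G T5 replicate 1 and 8.10 without G T5 replicate 3. The edgeR adjusted p was 0.0156, and 0.113 without R T5 replicate 2.

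The 4 largest losses of R against G that the rule named were of different kinds, and the first and second of them had R levels that were high at T2. GLYMA_10G067600 stood at 24.9, 15.4 and 8.31 rescaled CPM in R T2, against 0.872, 1.51 and 0.587 in G T2. At T5 it stood at 1.93, 6.79 and 4.31 in R and 1.32, 2.12 and 2.15 in G. The lines lay apart at T2 (log2 fold change 3.99, edgeR adjusted p = 1.74e-05) and overlapped at T5 (1.19, adjusted p = 0.135), and the change was -2.81 (SE 0.73, adjusted p = 0.0435). GLYMA_09G278700 stood at 19.8, 17.8 and 6.27 in R T2 and 1.90, 2.43 and 1.49 in G T2, and at 1.31, 9.14 and 6.16 in R T5 and 4.54, 5.22 and 3.48 in G T5. Its change was -2.67 (SE 0.70, edgeR adjusted p = 0.0452). Each lost its call without any of 15 of the 24 libraries, with adjusted p-values up to 0.123 and 0.112. Without R T5 replicate 1 the changes were -2.21 and -1.91. Within R, both followed the stretch ratio (Pearson's r = 0.89 for GLYMA_10G067600 and 0.95 for GLYMA_09G278700 over 12 libraries). Averaged over T2 to T5, the log2 fold change of GLYMA_10G067600 was 2.13, and 0.38 in the covariate fit. That of GLYMA_09G278700 was 2.07, and 0.4 in the covariate fit. The part of the stretch in the change from T2 to T5 was not tested.

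The other 2 of these losses went with G levels that were higher at T5 than at T2. One of them averaged 84.0 ± 61.8 rescaled CPM in R T2 and 25.3 ± 8.91 in G T2, and 54.0 ± 19.5 in R T5 and 100 ± 33.8 in G T5 (SD, n = 3 each). The other averaged 3.49 ± 1.39 in R T2 and 0.857 ± 0.298 in G T2, and 3.45 ± 1.40 in R T5 and 4.65 ± 1.23 in G T5. R lay above G in every library at T2 for both, and the lines overlapped at T5. The changes were -2.58 (SE 0.53, edgeR adjusted p = 0.0104) and -2.55 (SE 0.48, adjusted p = 0.00633), and in the covariate fit -2.76 (adjusted p = 0.00431) and -2.43 (adjusted p = 0.00934). Without R T2 replicate 3 they were -1.77 (adjusted p = 0.0439) and -2.07 (adjusted p = 0.0503), and without the 3 libraries under 10 M counts -2.36 (adjusted p = 0.05, no longer called) and -2.44 (adjusted p = 0.0192). Within R their Pearson's r with the stretch ratio was -0.05 and 0.08 over 12 libraries.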

How the data were processed

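RNA sequencing measured 1 library for each peeled embryo. The authors deposited 1 table of estimated counts (expected counts) per library, without normalization per the file headers, with 55900 rows. Tools named in the submitters' processing notes, with no role, were kallisto 0.43.1 and, beside it, R 3.6.3, sleuth 0.30.0 and FastQC 0.11.5. No source used here gives the build, the annotation or the strand handling, and reads of near-identical copies may be split between them. Counts were rounded to whole numbers. A row without a gene name, with at most 4 counts, was left out.

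Libraries were grouped by table name, 8 groups of 3. Genes were kept by filterByExpr in edgeR 4.0.16 (R 4.3.3). Library sizes and TMM factors were computed without GLYMA_13G013600 to GLYMA_13G023300, whose genes were then fitted with the rest. The quasi-likelihood F-test (2-sided, Benjamini-Hochberg over 33369 genes, 0.05) tested the mean of the 4 contrasts R minus G, each contrast, and the T5 minus T2 difference, and all adjusted p-values are from it unless DESeq2 is named. SE is the fold change over the root of F. The biological coefficient of variation was 0.17. Log2 ratios to Wt used a pseudocount of 0.5. Replicates were separate plants per the labels.

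The naming rule took the 12 largest rises and falls of the mean and the 4 largest in each direction of the T5 minus T2 difference; 2 of each are printed by identifier, with both transgenes, GLYMA_15G228600 and GLYMA_15G228700. The members, runs and lists were chosen with earlier results of these data known. Alternatives were TMM over all rows, RLE, DESeq2 1.42.0, no filter, Wt libraries in the fit, the replicate block, leaving out libraries, groups by title and shifted T numbers; 5 more were added after the data were seen. Python 3.11.15, numpy 2.4.6, pandas 2.3.3 and matplotlib 3.10.9 made summaries and plots.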

Additional observations from a re-analysis of the deposited data

Results flagged for a closer look

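The R minus G difference at T5 differed from that at T2 in 667 genes by edgeR's test of the difference itself. Of the genes named above, 5 were among them. GLYMA_12G111600, lower in R at every T number, had a log2 change of -2.35 between T2 and T5 (SE 0.62, adjusted p = 0.048). Its R T5 group held 9 counts in all, and edgeR's F-test of all 3 interaction terms gave an adjusted p of 0.0603. The fitted log2 change was 8.49 for GLYMA_19G091800 (SE 1.48, adjusted p = 0.00449) and 8.24 for GLYMA_19G051100 (SE 1.76, adjusted p = 0.0156). Both fitted values rest on G T5 groups at 0 counts and depend on the prior count, so they are no bound on the change. It was -2.81 for GLYMA_10G067600 and -2.67 for GLYMA_09G278700, with adjusted p-values of 0.0435 and 0.0452.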

How the results depend on the processing

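Counts called over T2 to T5 stayed within 1.5 times of 12728 under both other scalings, DESeq2, no filter, Wt in the fit, shifted T numbers and each library left out (11347 to 13594). Leaving out libraries gave 1525 to 3600 at T2, 3347 to 7581 at T3, 1659 to 4797 at T4, 3203 to 7127 at T5 and 301 to 1427 for T5 minus T2. It gave -0.17 to 0.18 for AtWRI1 and -0.15 to 0.14 for AtDGAT. By title (labelled WD-2 minus labelled WD-1) the mean called 4123 genes, with 0.12 for AtDGAT and 0.17 for GLYMA_02G111100. The stretch covariate, added after the data were seen, gave 193 over T2 to T5 and 180, 498, 2 and 3247 at T2, T3, T4 and T5, with 0.96 for AtWRI1, 0.78 for AtDGAT and a stretch median of -0.10. That median follows from the covariate, which is made of the stretch's own counts. The share of calls higher in R was 48.1, 54.8 and 43.2% at T2, T3 and T4, against 30.0, 68.5 and 0% with the covariate. Libraries under 35% (added) gave 325 over T3 and T5, 148 at T3 (81.8% higher) and 2002 at T5, with 0.51 for AtWRI1 and 0.16 for AtDGAT. The mean of T2 and T4 (added) called 6947, and that of T3 and T5 (added) 8560, with 0.24 for AtWRI1 and 0.13 for AtDGAT. For T5 minus T2, DESeq2 called 1105, leaving out libraries under 10 M counts 381, leaving out the library without AtWRI1 390, and the test of 3 interaction terms 3639. With Wt in the fit 60.1% of its 516 calls were higher, against 49.5%. The cause of these shifts was not tested.

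With the replicate number as a block the mean called 12654 genes and T5 minus T2 called 710. The numbers did not pair the libraries: same-numbered R and G libraries had correlations of -0.20 to 0.13 and 5 of 12 R libraries were closest to the G library of their own number. The block changed no other count by over 1.5 times.

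Depth limits the R side most, since 2 R libraries and 1 G library held under 10 M counts and R libraries kept 1.74 to 15 M outside the stretch.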
